A study of Mus musculus with 2 samples.

Results

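Genes for splicing factors of 5 symbol families were described in Purkinje cells, the large inhibitory output neurons of the cerebellar cortex. The members were protein-coding genes whose symbols start with Hnrnp, Srsf, Sf3a, Sf3b or Snrp, chosen by name and not by level. They numbered 51 (20 Hnrnp, 11 Srsf, 3 Sf3a, 6 Sf3b and 11 Snrp) of 21474 protein-coding genes in the tables. The material was 2 pools of 30 cells each, cut by laser from male B6CASTF1/J mice, a cross of C57BL/6 and CAST, at 14 months of age, with no treatment named in the labels. Both pools carry the same donor identifier, and the labels do not say whether they came from the same animal, so an SD between pools may be technical. The pools form a single group, so nothing was tested. Levels are given by pool or with their SD, and counts of genes beside the share over all protein-coding genes.

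The libraries held 31503819 and 28709397 expected counts in pools 1 and 2, and RNA of other cells was present. All 10 Purkinje cell markers reached a TPM (transcript abundance corrected for length and depth) of 1 in each pool, with a summed TPM of 95394 in pool 1 and 94695 in pool 2. Of 10 Bergmann glia and astrocyte markers 9 were detected in both pools, with a summed TPM of 2689 and 4612. The red blood cell markers, 4 of 5 detected, summed to 2453 and 16.3. In such bulk pools, fewer cells of a type and less RNA per cell cannot be told apart.

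Splicing removes introns from nascent transcripts in the spliceosome, which is built from small nuclear ribonucleoproteins (snRNPs). The Sm proteins, encoded by Snrp genes, form a ring around the spliceosomal RNAs, and SF3a and SF3b are parts of the U2 snRNP that hold the branch point of the intron. The hnRNP proteins and the serine- and arginine-rich proteins of the Srsf genes bind the transcript and shift the choice of splice sites, hnRNPs often against a site and SR proteins often for it. Many genes of both groups are known to make transcripts with a retained intron or a premature stop, through which the proteins limit their own amounts.

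Transcript models typed as retained intron held most of the TPM of several members. For 4 of them the longest stretch outside the coding models is shown. Each is printed 5′ to 3′ from GENCODE M21 on GRCm38, with the bases outside every complete coding model in capitals and the flanking exon in lower case. The printed bases of Hnrnpl-210, flanks included, lie at chr7:28821254-28821411 on the plus strand. Those of Snrpb2-203 lie at chr2:143064402-143064561 on the plus strand. Those of Hnrnph3-205 lie at chr10:63015875-63016099 on the minus strand and those of Snrpa-205 at chr7:27188935-27189014 on the minus strand.
Hnrnpl-210: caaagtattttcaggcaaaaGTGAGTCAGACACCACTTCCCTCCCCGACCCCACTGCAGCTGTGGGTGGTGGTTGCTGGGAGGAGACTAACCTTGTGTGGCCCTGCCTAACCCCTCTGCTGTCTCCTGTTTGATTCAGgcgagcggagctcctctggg
Snrpb2-203: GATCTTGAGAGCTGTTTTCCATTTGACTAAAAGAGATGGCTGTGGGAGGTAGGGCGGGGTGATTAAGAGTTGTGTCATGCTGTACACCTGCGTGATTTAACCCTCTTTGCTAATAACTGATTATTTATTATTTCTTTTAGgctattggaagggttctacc
Hnrnph3-205: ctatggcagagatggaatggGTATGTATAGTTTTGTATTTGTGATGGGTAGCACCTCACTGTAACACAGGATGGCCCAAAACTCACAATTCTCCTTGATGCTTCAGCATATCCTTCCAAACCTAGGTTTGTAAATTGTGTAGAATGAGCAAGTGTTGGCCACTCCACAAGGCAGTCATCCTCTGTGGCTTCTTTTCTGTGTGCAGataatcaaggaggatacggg
Snrpa-205: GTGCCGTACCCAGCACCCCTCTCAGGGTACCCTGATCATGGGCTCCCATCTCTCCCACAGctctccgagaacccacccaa
The capitals of Hnrnpl-210 and Hnrnph3-205, 118 and 185 bases, are flanked by exon on both sides and run from GT to AG, the letters that end most introns. Those of Snrpb2-203 (140 bases) and Snrpa-205 (60 bases) stand at the 5′ end of their models, with no exon before them, and end in AG.

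Nearly all of the members were detected. With a TPM of 1 or more in each pool as the threshold, 50 of 51 were present, against 30.3% of all protein-coding genes. The exception was Sf3a2, a U2 snRNP subunit, at 0.33 and 0.83 TPM from 28 and 61 counts. The median of log2(TPM + 1) over detected members was 3.91 ± 0.06 (SD, n = 2), against 2.16 ± 0.18 for the 8011 protein-coding genes detected in either pool. Here and below, a median over genes was taken from each gene's mean of both pools. Its SD is that of the medians of the 2 pools, between which it need not lie. Those were 4.07 and 3.98 for the members and 4.95 and 4.48 for Snrp. By family it was 4.49 ± 0.03 for Hnrnp, 4.40 ± 0.34 for Snrp, 3.20 ± 0.04 for Sf3b, 3.16 ± 0.07 for Srsf and 2.02 ± 0.24 for Sf3a. The medians of Hnrnp and Snrp lay within the larger SD of each other, as did those of Sf3b and Srsf. In sum the members held 2245 TPM in pool 1 and 2578 in pool 2, from 0.359% and 0.366% of gene counts.

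**Figure D1:**
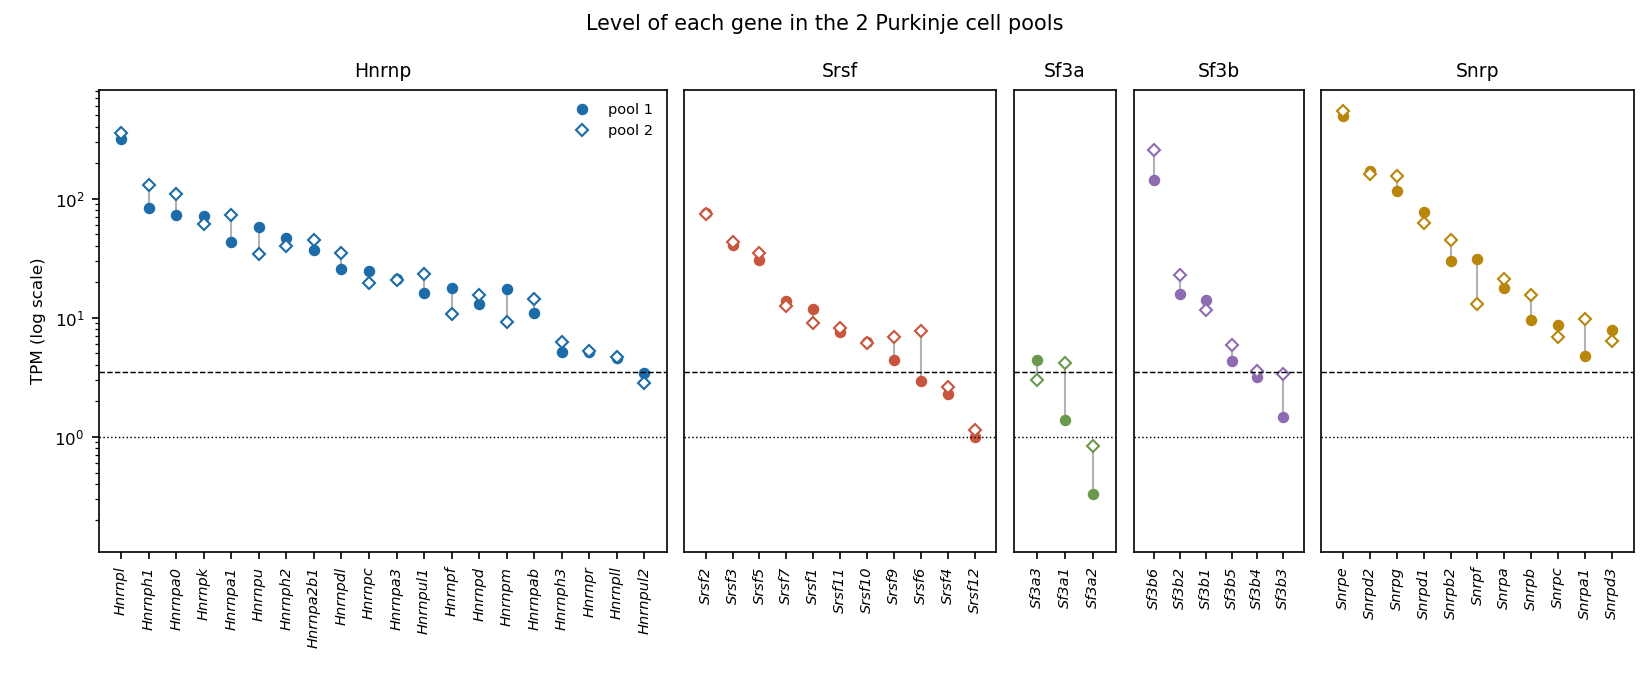
TPM (log scale) of all 51 members in pool 1 (filled circles) and pool 2 (open diamonds), by family and in order of mean level, with a grey line joining the pools. The dotted line marks a TPM of 1 and the dashed line the median of detected protein-coding genes. Only Sf3a2 lies under 1, and Snrpe, Hnrnpl and Sf3b6 stand highest in their families.

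Among the core proteins, the member genes of the Sm ring spanned a wide range although the ring holds 1 copy of each. Snrpe (ENSMUSG00000090553.4, chromosome 1, 133603871 to 133610291) was the highest of all members at 492 TPM in pool 1 and 548 in pool 2. Snrpd2 had 170 and 162 TPM, and Snrpg had 116 and 154. Within the Snrp family these stood in this order by more than the SD between pools. Snrpd1 had 76.7 and 62.5 TPM. Snrpf had 30.95 and 12.96 TPM. Snrpb, which encodes the B protein of the ring, had 9.62 and 15.4 TPM. Its relative Snrpn, which the naming rule leaves out, had 495 and 480 TPM from 36842 and 30780 counts. The level of Snrpb alone is therefore not that of the B position. Snrpd3, at 7.94 and 6.42, was the lowest Snrp member, so the mean TPM of the Sm members ran from 7.18 ± 1.07 to 520.1 ± 39.1 (SD, n = 2).

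Some of these Sm genes have short transcripts, and some have near-identical copies elsewhere. What part either has in that range was not tested. The main Snrpe transcript has 503 bases and that of Snrpg 350, and the tables subtract 99 bases from each length, so a read on a short transcript adds more TPM. The pseudogene Gm13092 shares 98.8% identity over 258 bases with Snrpf and held 1232 and 679 counts, more than the 958 and 345 of Snrpf itself. Gm8186 matches Snrpg at 100% over 231 bases and held 705 and 938 counts, 59.4% and 69.3% of those of Snrpg. Snrpert, a copy of Snrpe, held 8.23% and 8.91% of the counts of Snrpe. The levels of these 3 Sm genes are therefore uncertain. Gm12355, a copy of Srsf3, held 8.52% and 7.97% of its counts.

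The proteins particular to a single snRNP were lower than the highest Sm genes. Snrpb2, which encodes the B″ protein of U2, had 29.99 and 45.1 TPM. Snrpa, the A protein of U1, had 17.8 and 21.3 TPM. Snrpc, the C protein of U1, had 8.67 and 6.83 TPM, and Snrpa1, the A′ protein of U2, had 4.76 and 9.77. Snrpc, Snrpa1 and Snrpd3 were not separated by the SD between pools.

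Of the SF3b genes, Sf3b6 stood far above the rest. Sf3b6 (ENSMUSG00000037361.7, chromosome 12, 4817544 to 4827659), whose small protein touches the branch point adenosine, had 144 and 256 TPM from 5955 and 9102 counts. The next was Sf3b2 at 15.7 and 22.8 TPM, and the gap of 181 exceeded the larger SD of 79.1. Sf3b1, the large subunit that is mutated in human myeloid disease, had 14.2 and 11.7 TPM. Sf3b5 had 4.33 and 5.89, Sf3b4 had 3.16 and 3.54, and Sf3b3 had 1.45 and 3.34 TPM. The means of those 3 genes, from 2.40 to 5.11 TPM, lay around the median of 3.58 TPM over detected protein-coding genes. Phf5a, an SF3b subunit outside the naming rule, had 17.0 and 6.76 TPM.

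The SF3a genes were the lowest family, and each differed between pools. Sf3a3 had 4.43 and 3.02 TPM, Sf3a1 had 1.39 and 4.18, and Sf3a2 lay under 1 in both. Sf3a3 and Sf3a1 were not separated by the SD between pools. Sf3a2 shares exon sequence with the overlapping gene Plekhj1, which had 187 and 145 counts. No strand setting of the authors' counting is given in the sources used, so reads of that pair are uncertain.

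Of the hnRNP genes, all 20 were detected in both pools. Hnrnpl (ENSMUSG00000015165.12, chromosome 7, 28808541 to 28822266), whose protein binds CA repeats, was the highest in deposited TPM, at 317 and 356 from 7458 and 7246 counts. Hnrnph1, which binds runs of G, had 82.96 and 129 TPM. Hnrnpa0, a relative of the A and B proteins, had 72.4 and 109. Next came Hnrnpk (71.9 and 61.3), Hnrnpa1 (43.6 and 72.98) and Hnrnpu (57.2 and 34.02). From Hnrnph1 to Hnrnpu each gap between neighbours was within the larger SD, while genes further apart, such as Hnrnph1 and Hnrnpu, differed by more than it. Hnrnpk binds runs of C, Hnrnpa1 is a repressor of exon inclusion and Hnrnpu binds chromatin and the nuclear scaffold. Hnrnpa2b1 had 36.9 and 45.05 TPM and Hnrnph2 46.7 and 39.8. The leader was not the same on other scales. In coding-typed transcripts alone Hnrnpa0 had the highest mean TPM, 90.5 ± 25.7 (SD, n = 2), and Hnrnpl had 1.74 ± 0.502. With counts divided by the length of the longest coding-typed transcript, Hnrnpa0 (102.9 ± 29.9) and Hnrnpl (86.1 ± 7.90) were not separated.

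The other hnRNP genes ran down to a mean TPM of 3.12. The lowest were Hnrnpll, a relative of Hnrnpl, at 4.59 and 4.65 TPM, and Hnrnpul2 at 3.43 and 2.81. These lowest genes were separated from each other by more than the SD between pools. Of the 19 neighbouring pairs in the Hnrnp order 7 were separated in this way.

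Of the SR protein genes, 3 led the family in deposited TPM. Srsf2 had 75.9 and 74.4 TPM, Srsf3 had 40.6 and 43.2, and Srsf5 had 30.5 and 35.3. The gaps between them exceeded the SD between pools, but the order was not the same on other scales. In coding-typed transcripts alone Srsf5 led with a mean TPM of 31.4 ± 4.19 (SD, n = 2), followed by Srsf7 at 13.2 ± 0.785, and Srsf2 had 12.7 ± 1.08. With counts divided by the length of the longest coding-typed transcript Srsf2 (38.6 ± 1.77) and Srsf5 (36.9 ± 2.93) were not separated. Srsf2 overlaps Mettl23 and Mfsd11, which had 284 and 384 and 141 and 145 counts against 2414 and 2198 for Srsf2. At the lower end, Srsf4 had 2.28 and 2.61 TPM and Srsf12 had 1.00 and 1.13, so Srsf12 lay at the threshold of detection. Between these ends lay Srsf1, long known as a general splicing factor, at 11.8 and 9.09 TPM, and 5 further genes with means from 5.38 to 13.2 TPM.

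Whether the levels rest on transcripts that can encode the protein was asked from the transcript tables. Of the 51 members 11 have 1 annotated transcript, and 39 were detected in both pools with at least 2. In 10 of these 39, more than 50% of the TPM in both pools lay in transcripts that GENCODE M21 does not type as protein-coding, against 17.3% of 5016 such protein-coding genes. By counts, which do not weight short transcripts, it was 5 of 39 (Hnrnpl, Snrpb2, Srsf2, Hnrnph3 and Sf3b1), against 13.0%. On that measure the members were near the share of all such genes. The median share was 4.61% ± 2.11 (SD, n = 2) for the members and 1.06% ± 0.243 for all such genes. Pool 1 alone gave 4.88% for the members and 0.526% for all such genes, and pool 2 alone 1.89% and 0.182%. The SD is that of these pool medians, which for all such genes both lay under the median of the gene means. By family the median share was 38.3% ± 0.678 for Sf3b and 12.2% ± 13.2 for Sf3a, each over 2 genes, 18.95% ± 3.92 for Srsf, 4.72% ± 6.50 for Snrp and 0.733% ± 0.119 for Hnrnp, so the Snrp and Sf3a values were smaller than their spread.

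**Figure D2:**
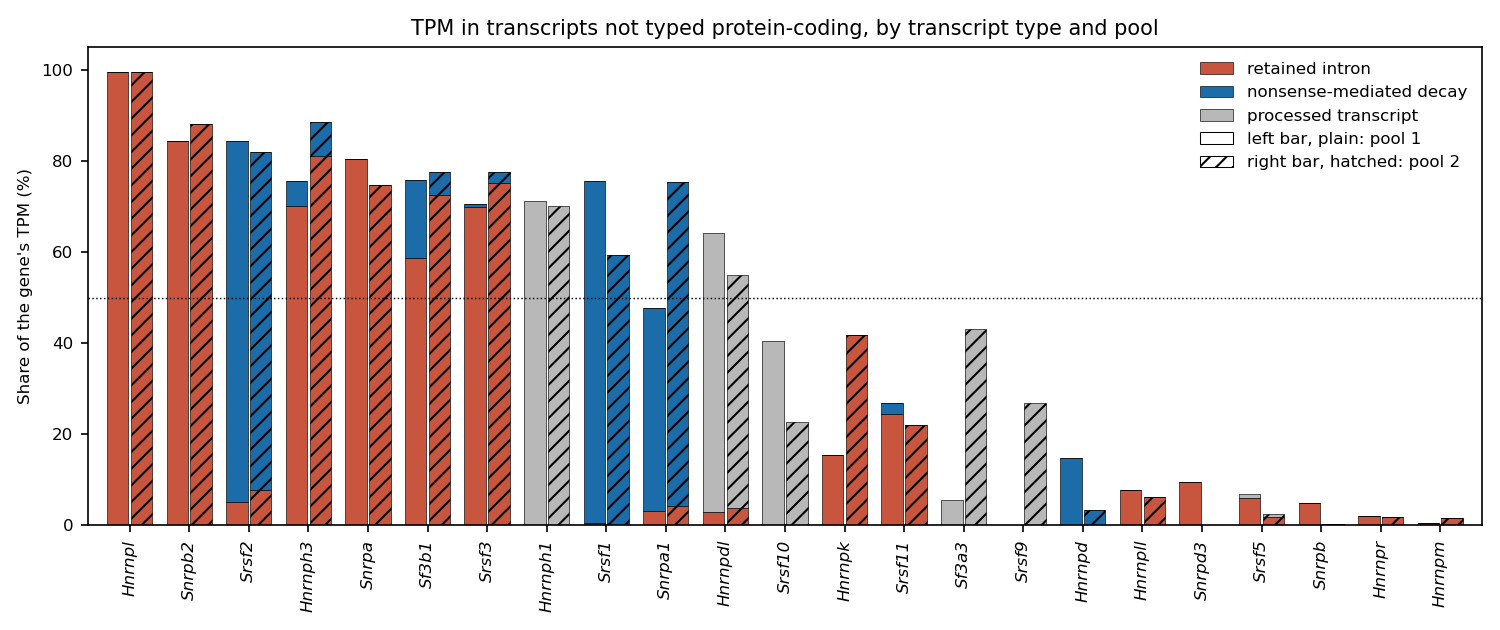
Share of each gene's TPM (percent) in transcripts not typed protein-coding, for the members with at least 1% in a pool, with retained intron in red, nonsense-mediated decay in blue and processed transcript in grey. Plain bars are pool 1 and hatched bars pool 2, and the dotted line marks 50%. The 10 genes above the line in both pools include Hnrnpl at over 99% and Snrpa1 crosses it in pool 2 alone.

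The retained-intron type led in 6 of the 10 genes. How often each type led among all protein-coding genes was not taken. Hnrnpl-210 held 99.6% and 99.4% of the TPM of Hnrnpl, and 98.5% and 97.9% of its counts. Snrpb2-203 held 84.3% and 86.2% of Snrpb2, and Snrpa-205 held 80.5% and 74.7% of Snrpa. These shares lay far above 50% in both pools. By counts the share of Snrpa-205 was 57.5% and 49.4%, and that of Snrpb2-203 57.5% and 63.7%. Hnrnph3-205 held 58.4% and 77.5% of Hnrnph3, and Sf3b1-207 held 43.3% and 62.4% of Sf3b1. By counts these were 37.4% and 61.2% for Hnrnph3-205 and 40.4% and 54.0% for Sf3b1-207. All transcripts of Sf3b1 not typed coding together held 75.7% and 77.6%. Srsf3-205 held 69.7% and 75.0% of Srsf3, and 43.0% and 50.2% of its counts. The deposited length of Srsf3-205, 910 bases, differs from the 2110 in M21, so its exons were not compared.

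In 2 of 10 Srsf genes with several transcripts, Srsf2 and Srsf1, the type marked for nonsense-mediated decay, in which a premature stop sends the mRNA to degradation, held most of the TPM. In the others it held at most 2.43% in a pool. Srsf2-204, of this type, held 79.2% and 74.2% of the TPM of Srsf2, and 52.7% and 45.7% of its counts. Srsf1-204 held 75.2% and 59.3% of Srsf1, but 32.6% and 19.7% of its counts. The remaining genes were Hnrnph1, with 68.4% and 67.8% in the processed transcript Hnrnph1-212, and Hnrnpdl, with 61.4% and 51.1% in Hnrnpdl-203. Processed transcripts are models with no annotated reading frame. By counts Hnrnph1-212 held 43.3% and 43.4% and Hnrnpdl-203 53.7% and 44.2%.

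**Figure D3:**
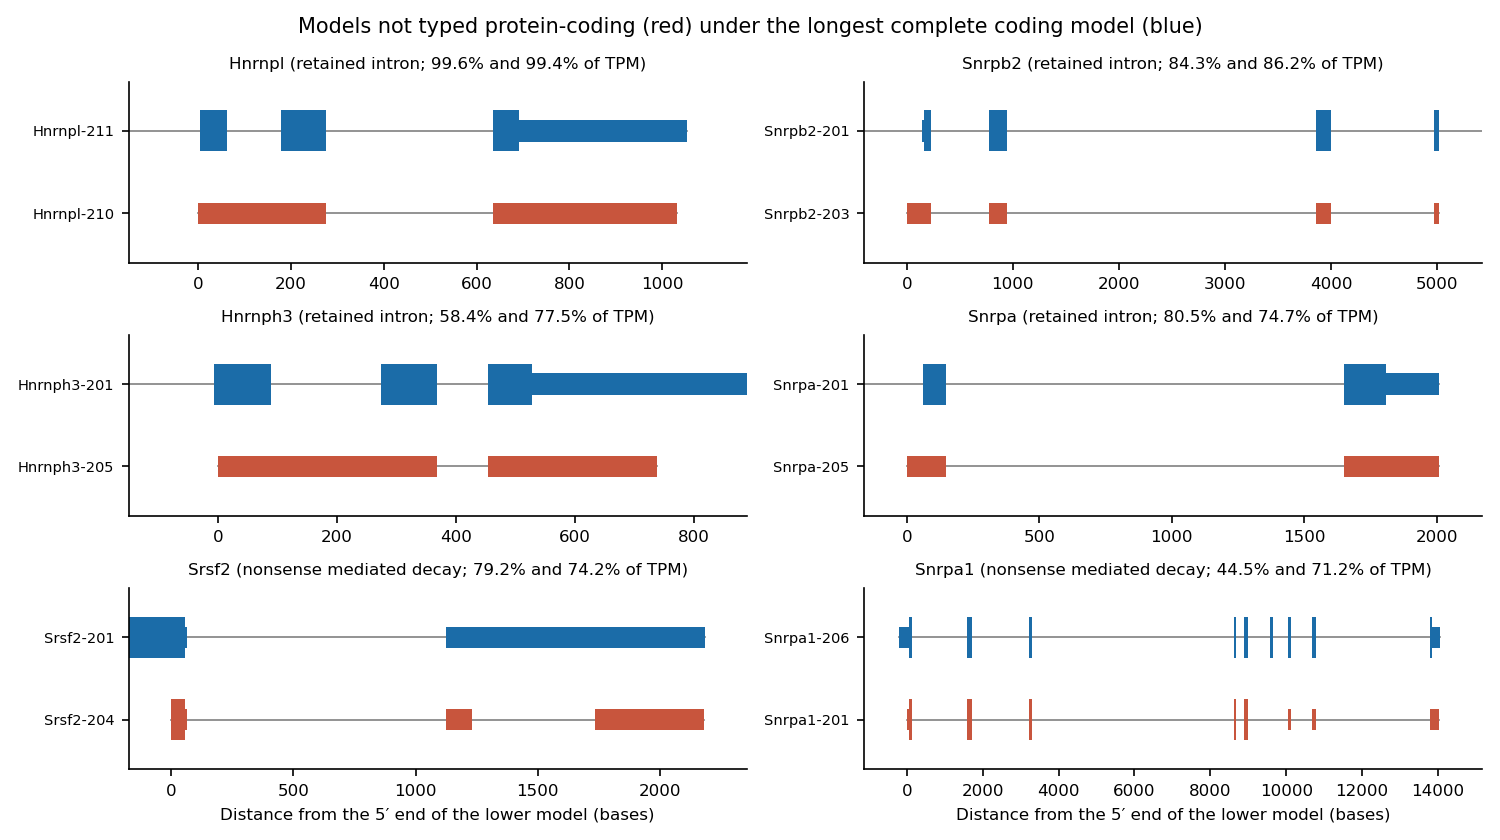
Exon models of 6 members drawn to scale against the distance in bases from the 5′ end of the red model, in which thick blocks are coding sequence, thin blocks other exon and lines introns. The red model is the leading one not typed protein-coding and the blue one the longest complete coding model, cut at the window. The retained stretch fills the gap between blue exons in Hnrnpl and Hnrnph3, and the red models share most exon bases with the blue ones.

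These models share most of their sequence with coding mRNA. Of the 11 leading models in genes past 50% in a pool, 10 had the same length in both annotation releases. All 10 were shorter than the longest complete coding model of their gene, with a median of 744 bases against 2320. A median of 85.8% of their bases lay in exons of coding models, and 6 of the 10 ended within 50 bases of the 3′ end of the coding model. Hnrnpl-210 has 672 bases, of which 82.0% lie in coding models, and it ends 22 bases before the 3′ end of Hnrnpl-211, a model of 2679 bases. Reads from the shared bases do not tell these models apart, and how many of the counts came from the retained stretches was not tested.

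The level of a member therefore depends on which transcripts are counted. The TPM of coding-typed transcripts alone was 1.74 ± 0.502 (SD, n = 2) for Hnrnpl, which moved it from rank 2 to rank 48 of the 51. With all counts divided by the length of its longest coding-typed transcript and rescaled to the TPM total, Hnrnpl had 86.1 ± 7.90 and rank 6. Snrpb2 had 37.5 ± 10.7 as deposited, 5.03 ± 0.431 in coding-typed transcripts and 15.1 ± 3.56 at the fixed length. Srsf2 had 75.2 ± 1.09, 12.7 ± 1.08 and 38.6 ± 1.77 in the same order. Sf3b1 had 12.9 ± 1.74, 3.03 ± 0.580 and 8.68 ± 0.647. In each of these genes the fixed-length level lay between the others. Snrpe, Sf3b6, Snrpd2 and Snrpg held ranks 1 to 4 in coding-typed transcripts and at the fixed length.

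**Figure D4:**
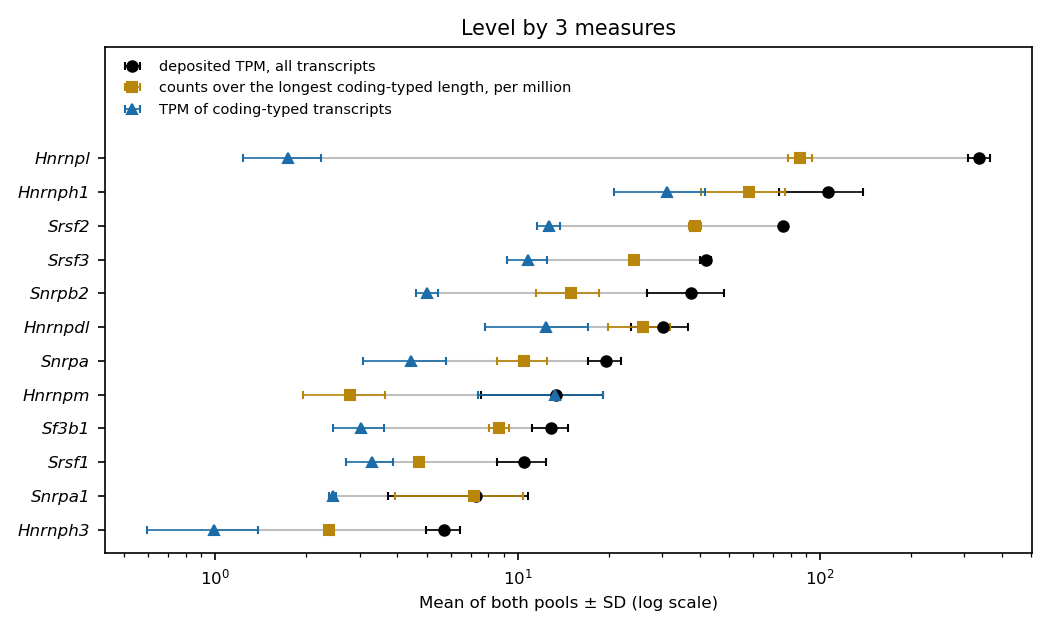
Mean level of both pools with the SD as bars, on a log scale, for the 11 genes with over 50% of TPM in transcripts not typed protein-coding in a pool and for Hnrnpm. Black circles are deposited TPM, ochre squares counts over the longest coding-typed length scaled to the TPM total, and blue triangles the TPM of coding-typed transcripts. Hnrnpl spans from 336.6 to 1.74 and Hnrnpm is the one in which the fixed-length value is lowest.

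A coding type does not always mean a full mRNA. Hnrnpm-204, typed protein-coding with an incomplete reading frame and 634 bases long, held 93.2% and 86.8% of the TPM of Hnrnpm, which had 17.5 and 9.27 TPM. At the fixed length Hnrnpm had 2.79 ± 0.843 (SD, n = 2). Its exons overlap those of March2, which had 273 and 349 counts against 466 and 257 for Hnrnpm.

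The leading transcript was the same in both pools for 36 of 39 members, against 86.0% of protein-coding genes. The 3 others were Snrpa1, Srsf5 and Srsf10. In Snrpa1 the coding Snrpa1-206 held 52.3% in pool 1 and 24.6% in pool 2, and Snrpa1-201, typed for nonsense-mediated decay, held 44.5% and 71.2%. The TPM of Snrpa1-206 was 2.49 and 2.40, while that of Snrpa1-201 was 2.12 and 6.95. In Srsf5 the coding-typed Srsf5-203 held 44.6% and 15.4% of the gene's TPM in pools 1 and 2, and Srsf5-202 held 23.4% and 61.9%. In Srsf10, Srsf10-205 held 26.4% and 35.9% and Srsf10-204 held 14.6% and 41.4%.

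Between the pools, few members differed by more than 2-fold. In TMM-scaled counts 6 of 51 did so, against 28.8% of the 12558 protein-coding genes with at least 10 counts in total. Of these 3 were higher in pool 2 (15.0% of all) and 3 in pool 1 (13.8%). Among genes with at least 100 counts the share was 17.4%, with 5 members past the threshold. The median log2 ratio of the members, pool 2 over pool 1, was -0.09, against 0.01 for all protein-coding genes. Scaled counts were higher in pool 2 for 20 of 51 members, against 6347 of the 12558 protein-coding genes. Scaled by total counts 31 members were higher in pool 2, and by spike-in totals 4. The number of all genes higher in pool 2 was not taken under those scalings. Their median log2 ratio was 0.20 and -0.77.

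**Figure D5:**
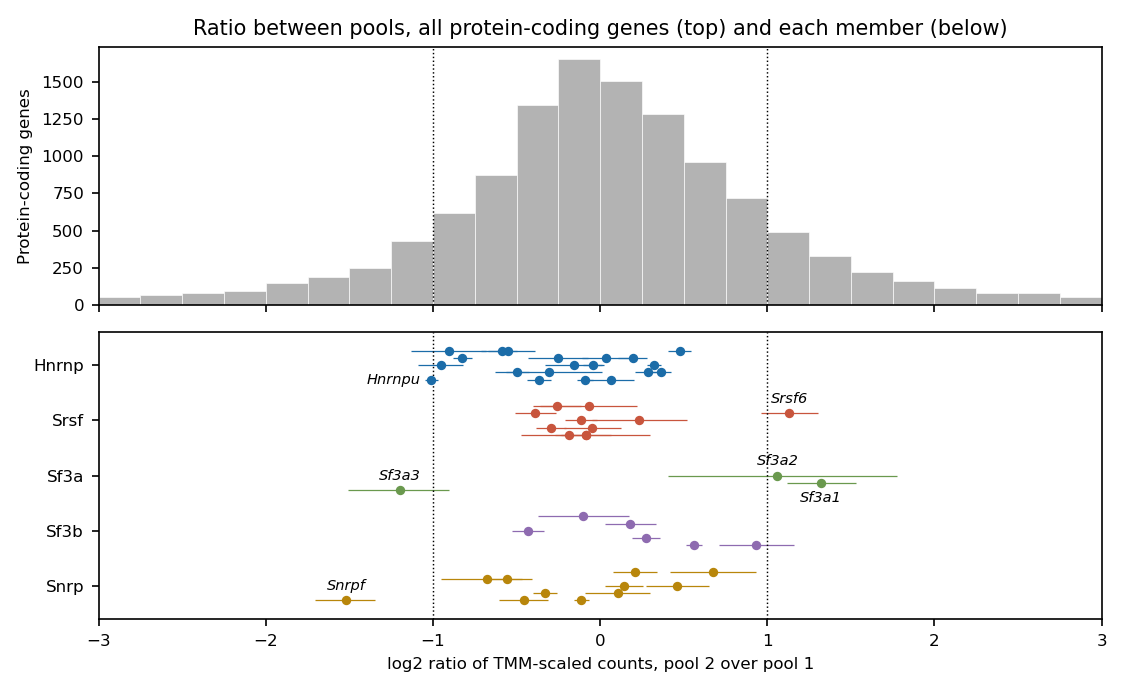
Top, number of protein-coding genes with at least 10 counts by log2 ratio of TMM-scaled counts, pool 2 over pool 1, from -3 to 3 (756 of 12558 genes lie beyond). Below, the ratio of each member by family with its 95% counting interval, spread vertically only for legibility, and with dotted lines at 2-fold. All 3 Sf3a members lie outside the lines and no Sf3b member does, and Phf5a, not a member, is not drawn.

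In TMM-scaled counts all 3 SF3a genes were past 2-fold, and in opposite directions. No Sf3b member was, with 0.93 as the highest log2 ratio. Phf5a, the SF3b subunit outside the naming rule, was past it with 529 and 181 counts, a log2 ratio of -1.59. Sf3a1 had 272 and 705 counts, a log2 ratio of 1.32 (95% counting interval 1.12 to 1.53). Sf3a2 had 28 and 61 counts and a ratio of 1.06 (0.41 to 1.77), so its interval reaches well under 2-fold. Sf3a3 had 300 and 135 counts and a ratio of -1.20 (-1.51 to -0.90). Scaled by spike-in totals the ratios were 0.54 for Sf3a1, 0.28 for Sf3a2 and -1.98 for Sf3a3, so Sf3a1 and Sf3a2 were then not past 2-fold. The TPM of Sf3a3 differed less, with a log2 ratio of -0.55, and its mean transcript length in the tables was 1768 bases in pool 1 and 1376 in pool 2. The intervals cover the counting error of reads in these libraries only, not that of RNA molecules.

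The others past 2-fold were Srsf6, Snrpf and Hnrnpu. Srsf6, an SR protein gene, had 2.96 and 7.79 TPM from 412 and 934 counts, a log2 ratio of 1.13 (0.96 to 1.30). Scaled by spike-in totals its ratio was 0.35. Snrpf had a ratio of -1.52 (-1.70 to -1.34), and -1.14 with the counts of its copy Gm13092 added. Hnrnpu had 17442 and 8965 counts and a ratio of -1.01 (-1.05 to -0.97), at the threshold, and -0.98 under DESeq2 size factors. By deposited TPM 6 members also differed by more than 2-fold, against 29.7% of all protein-coding genes on that scale, and 4 were shared (Sf3a1, Sf3a2, Srsf6 and Snrpf). Snrpa1 and Sf3b3 were past it by TPM alone, with log2 ratios of 1.04 and 1.20, against a median of 0.28 for all protein-coding genes by TPM. The Bergmann glia and astrocyte markers had a median log2 ratio of 0.59, with 8 of 10 higher in pool 2 and none past 2-fold. The red blood cell markers had -7.28, with 4 of 4 past 2-fold, and the Purkinje cell markers had -0.37. The part of such cells in the member ratios was not tested.

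Most of the other spliceosome genes were present too. Of 34 such genes 27 passed a TPM of 1 in each pool, against 30.3% of all protein-coding genes. The median log2(TPM + 1) of the detected genes was 2.61 ± 0.09 (SD, n = 2), against 2.16 for all. In scaled counts 8 of 34 differed by more than 2-fold, against 28.8% of all, 2 higher in pool 2 and 6 in pool 1. The highest were the Lsm ring genes Lsm6, at 430 and 504 TPM, and Lsm7, at 175 and 176, followed by the splicing factor gene Bud31 at 38.6 and 49.8. The Lsm proteins form a ring like that of the Sm proteins on U6 RNA. The lowest were Ddx23, a helicase of the U5 snRNP, at 0.25 and 0.08 TPM, and Snrnp35, of the minor spliceosome, at 0.19 and 0.56.

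Of 11 genes that assemble snRNPs 7 were detected in both pools, against 30.3% of all protein-coding genes. The median log2(TPM + 1) of those detected was 2.01 ± 0.76 (SD, n = 2), against 2.16 for all. In scaled counts 7 of 11 differed by more than 2-fold, against 28.8% of all protein-coding genes, 4 higher in pool 2 and 3 in pool 1. Several of these 7 rested on few counts. The highest were Strap, a partner of the assembly complex, at 38.9 and 36.1 TPM, the Sm chaperone Clns1a at 14.9 and 17.9 and Gemin7 at 6.19 and 15.0. The lowest were Gemin2, at 0.25 and 0.61 TPM from 14.9 and 32 counts, and Gemin4, at 0.47 and 0.12 from 65.9 and 15. Both were past 2-fold. Smn1, the core of the assembly complex, was past 2-fold with 34 and 75 counts, as was Wdr77 with 353 and 764. Smn1 and Wdr77 were named after their values were seen.

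Kinases of SR proteins and close relatives of the members were mostly detected. Of 7 kinase genes 5 reached a TPM of 1 in each pool (30.3% of all protein-coding genes). The median log2(TPM + 1) of the kinase genes detected was 3.32 ± 0.21 (SD, n = 2), against 2.16 for all. The kinase median of mean TPM was 9.24 as deposited and 2.05 in coding-typed transcripts alone, against 3.575 and 2.755 for all. Of the 6 kinase genes with at least 10 counts 1, Clk3, differed by more than 2-fold (28.8% of all). Clk1 led at 70.0 and 48.6 TPM, followed by Clk4 at 12.8 and 14.1 and Srpk2 at 9.73 and 12.8. Clk3, at 0.48 and 1.64 TPM, and Srpk3, at 0.07 and 0, were the lowest. Of 8 hnRNP and SR relatives 7 were detected (30.3% of all protein-coding genes), with a median of 2.41 ± 0.13 on the same log2 scale. They were led by the poly-C binding genes Pcbp2 (70.8 and 88.1) and Pcbp1 (46.1 and 51.7) and the SR-like Tra2b (7.52 and 11.9). The lowest were Syncrip at 1.46 and 1.75 TPM and Raly at 0.24 and 0.23. In that list 1 of 8 genes differed by more than 2-fold (28.8% of all). It was Rbmx at 2.13 and 5.77 TPM, which was named after its values were seen.

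Regulators of splicing known from neurons and muscle were lower than the members. Of 26 such genes 16 passed a TPM of 1 in each pool (30.3% of all protein-coding genes). The median log2(TPM + 1) of those detected was 2.17 ± 0.14 (SD, n = 2), near the 2.16 of all. Of 24 with at least 10 counts 4 differed by more than 2-fold (28.8% of all), 3 higher in pool 2 and 1 in pool 1. The highest were Celf2 at 51.6 and 75.6 TPM, Mbnl2 at 33.3 and 30.5 and Qk, which is also high in glia, at 13.4 and 31.1. Celf3 (0 and 0.03) and Celf5 (0.02 and 0.01) were the lowest. Ptbp2, the polypyrimidine tract binding protein of neurons, had 8.56 and 6.79 TPM, while Ptbp1, its relative in most other cells, had 0.41 and 0.25. Rbfox3, the neuronal marker NeuN, had 0.39 and 1.23, and Ptbp1, Ptbp2 and Rbfox3 were named after their values were seen.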

How the data were processed

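Per the labels, libraries came from total RNA by a SMARTer Ultra Low protocol and were run on HiSeq machines. The authors quantified each library against mm10 with GENCODE M4, per their deposited text files. No aligner, quantifier or strand setting is given in the sources used here. As the file headers show, the deposited tables hold expected counts, estimated reads per gene or transcript with decimals. The deposited TPM values are corrected for effective length, and the deposited FPKM and posterior mean values were used as alternatives. Bias towards the C57BL/6 allele was not tested.

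Symbols, transcript types and exons came from GENCODE M21, in which 271 of 272 member transcripts had the same identifier and 242 the same length. Snrpn and pseudogenes were left out by the rule. The shares of TPM and counts by transcript, in percent, were computed from the deposited transcript values. Ratios used expected counts scaled by TMM factors (edgeR 4.0.16) with 0.5 added. Near-identical copies were found with blastn 2.17.0 (at least 95% identity over 200 bases). Rows that name no gene held 0.000412% and 0.000194% of counts and were left out. Named genes were the 3 highest and 2 lowest of each family or list and, among members only, all Sm, SF3a and SF3b genes, those under a TPM of 1, past 2-fold, or past 50% in transcripts not typed coding, and those whose leading transcript differed. Hnrnpk, Hnrnpa1, Hnrnph2, Hnrnpa2b1, Hnrnpm, Snrpc, Snrpn, Phf5a and the overlapping or copied genes were named outside this rule, after their values were seen. The members, lists and rules were chosen with earlier results of these data known. Alternatives were DESeq2 1.42.0 size factors, totals, spike-ins, thresholds and other units. Measures over coding-typed transcripts or a fixed length, the TPM ratio and the addition of copies were chosen after seeing the data. The labels name no molecular identifiers, so the intervals treat each read as independent and cover the counting error of reads only.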

Additional observations from a re-analysis of the deposited data

How the results depend on the processing

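Of 82 alternative values, 49 kept their result. The number of detected members stayed within 1.5 times of 50 under all settings run. Median log2 levels moved by more than the spread between pools under several units. With TPM rescaled over protein-coding nuclear genes they were 5.34 for Hnrnp, 3.97 for Srsf, 2.72 for Sf3a, 4.00 for Sf3b and 5.25 for Snrp, with all protein-coding genes at 2.89. With FPKM they were 4.80, 3.45, 2.26 and 3.49 for Hnrnp, Srsf, Sf3a and Sf3b, against 2.42. With a pseudocount of 0.1 those 4 were 4.43, 3.0, 1.62 and 3.03, against 1.82. Posterior mean TPM gave 3.25 for Srsf. In coding-typed transcripts alone they were 4.12 for Hnrnp, 2.56 for Srsf, 2.36 for Sf3b and 3.69 for Snrp, against 1.87, and at a fixed length 4.61, 2.79, 3.01 and 3.99, against 2.05. From 1 pool alone they were 4.52 to 4.57 for Hnrnp and 4.48 to 4.95 for Snrp.

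The median member ratio turned to 0.10 under total counts (0.20 for all protein-coding genes) and was -0.87 under spike-in totals (-0.77); these scalings shift all genes alike. Members past 2-fold numbered 20 under spike-in totals, all higher in pool 1 (44.5% of all protein-coding genes), and 13 at a fold of 1.5 (48.3%). The median share in transcripts not typed coding was 7.69% in posterior mean TPM and 1.89% to 4.88% from 1 pool alone. Members with a majority of such transcripts numbered 5 by counts (13.0% of all). Of 21 members at a TPM of 10 or more, 20 had the same leading transcript in both pools, against 92.8% of all protein-coding genes at that level. No paired analysis was possible because the pools form a single group. With 2 pools the spread is itself poorly known, and low genes such as Sf3a2 rest on few reads.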
